A study of Homo sapiens with 9 samples.

Results

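DDIT3, ATF3, PMAIP1 and GDF15 are 4 genes of the branch of the integrated stress response that runs through CHOP, the protein encoded by DDIT3. They were taken by gene symbol from the 14884 genes with a named probe set on the array. Each had 1 probe set, and all 4 were among the 12155 genes tested, with a log2 intensity of at least 5 on all 9 arrays. The samples were EA.hy926 cells, an established line made by fusing human umbilical vein endothelial cells with A549 lung carcinoma cells. Of them, 3 arrays held unexposed cells, 3 held cells given 5 nm silver nanoparticles for 6 h, and 3 held cells given 100 nm silver nanoparticles for 6 h, each particle at about its LD50. No mass dose is stated in the labels, so effects of size and of dose cannot be told apart. The labels number the replicates 1 to 3 in each group without saying whether each came from its own culture; the p-values therefore rest on the spread among these arrays, which may be technical. Of 10 endothelial markers with a probe set, 9 were at or above the floor of 5 on all 9 arrays, among them PECAM1, KDR, ERG and VWF. EMCN was below it on all of them, while KRT8, KRT18 and KRT19, keratins of epithelial cells, were above it on all 9. The floor lies below the median of every array (5.15 to 5.64), so reaching it does not by itself show expression. VWF had a control mean of 5.98. That is near those of the lung epithelial markers SFTPB (6.06), SFTPC (5.88) and NKX2-1 (5.95), which reached the floor on all 9 arrays too.

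When cells meet misfolded protein, amino acid shortage, heme shortage or damaged mitochondria, kinases phosphorylate the translation factor eIF2, general protein synthesis slows and the transcription factor ATF4 is translated. ATF4 activates DDIT3 and ATF3, both bZIP transcription factors that pair with other bZIP proteins. Together they reach genes that restore amino acid supply and genes that promote death, including PMAIP1, which encodes NOXA, a BH3-only protein that binds the survival protein MCL1. GDF15 encodes a secreted member of the TGF-beta superfamily that is known as a mitokine, a hormone of mitochondrial and other cell stress, and it is a known target of CHOP and of p53. ATF3 and PMAIP1 are also known p53 targets.

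The sequences before the annotated starts of the 4 genes are shown because DDIT3, ATF3 and PMAIP1 were higher together after 5 nm particles while GDF15 was nearly level. They are from RefSeq on GRCh38.p14, 5′ to 3′ on the gene's strand, with matches to the searched motifs in capitals. The window of DDIT3 is chr12:57520518-57520714 on the minus strand, that of ATF3 is chr1:212565157-212565406 on the plus strand, that of PMAIP1 is chr18:59899746-59899995 on the plus strand and that of GDF15 is chr19:18385908-18386157 on the plus strand. RefSeq's table held 2 windows each for DDIT3 and ATF3, and the one at the outermost start is given.
DDIT3: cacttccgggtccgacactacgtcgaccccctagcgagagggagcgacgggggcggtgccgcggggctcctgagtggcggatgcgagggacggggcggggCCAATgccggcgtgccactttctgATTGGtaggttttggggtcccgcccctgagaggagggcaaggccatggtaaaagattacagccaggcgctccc
ATF3: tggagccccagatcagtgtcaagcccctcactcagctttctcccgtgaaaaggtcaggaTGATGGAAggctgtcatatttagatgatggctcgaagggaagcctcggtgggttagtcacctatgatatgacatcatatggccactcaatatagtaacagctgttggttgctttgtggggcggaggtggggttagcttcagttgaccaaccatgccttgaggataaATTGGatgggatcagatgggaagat
PMAIP1: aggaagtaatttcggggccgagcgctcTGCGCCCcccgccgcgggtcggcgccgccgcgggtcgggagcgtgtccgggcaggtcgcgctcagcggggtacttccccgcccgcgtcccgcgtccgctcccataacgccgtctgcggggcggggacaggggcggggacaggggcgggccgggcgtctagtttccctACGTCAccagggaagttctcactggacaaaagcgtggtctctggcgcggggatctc
GDF15: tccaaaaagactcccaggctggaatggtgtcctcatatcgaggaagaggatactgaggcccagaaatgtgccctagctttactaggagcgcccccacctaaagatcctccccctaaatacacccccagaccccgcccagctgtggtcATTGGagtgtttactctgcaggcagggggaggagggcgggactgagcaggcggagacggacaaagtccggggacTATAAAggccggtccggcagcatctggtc

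The search covered 250 bases before each start on both strands, in 35116 windows of that length. The DDIT3 sequence is printed over 197 bases, since the other 53 lie inside the span of the neighbouring gene MBD6. Those unprinted bases held a match to the AP-1 element (TGANTCA, bound by JUN, FOS and ATF3 pairs), which was found in 6.57% of all windows, and the adjoining metal response element (TGCGCNC, 16.8% of windows). DDIT3 also had 2 CCAAT boxes (CCAAT, bound by NF-Y, 32.0% of windows). The ATF3 window held a C/EBP-ATF element core (TGATGNAA, 3.14% of windows), the kind of site that ATF4 and CHOP bind with C/EBP partners, and a CCAAT box. PMAIP1 held a short cyclic AMP element (TGACGT, bound by ATF and CREB factors, 7.1% of windows) and a metal response element. GDF15 held a TATA box (TATAAA, 10.7% of windows) and a CCAAT box. No match in these 4 windows was found for the full cyclic AMP element (TGACGTCA, 1.65% of windows), the endoplasmic reticulum stress element (CCAAT and CCACG with 9 bases between, 0.074%), the antioxidant element core (TGACNNNGC, 10.9%), the heat shock element core (GAANNTTC, 5.78%), the other metal response element (TGCACNC, 9.87%) or the p53 decamer (5.57%). Only full matches to the given letters were counted, so near matches were left out. In DDIT3 the first CCAAT box is followed, after 9 bases, by CCACT, which differs from CCACG in its last base only. Read on the other strand, the second CCAAT box is followed, after 9 bases, by GCACG, which differs from CCACG in its first base only. How often such near matches occur in all windows was not counted. No printed match overlaps another, and the full cyclic AMP element contains the short one. The other ATF3 window, at the inner start, was searched too. Its only match was a TATA box, so the C/EBP-ATF element core of ATF3 was found at the outermost start and not at this inner one. Any start of ATF3 outside these 2 windows was not searched, for this or for the other motifs. A match is a description of letters and not of binding.

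**Figure D1:**
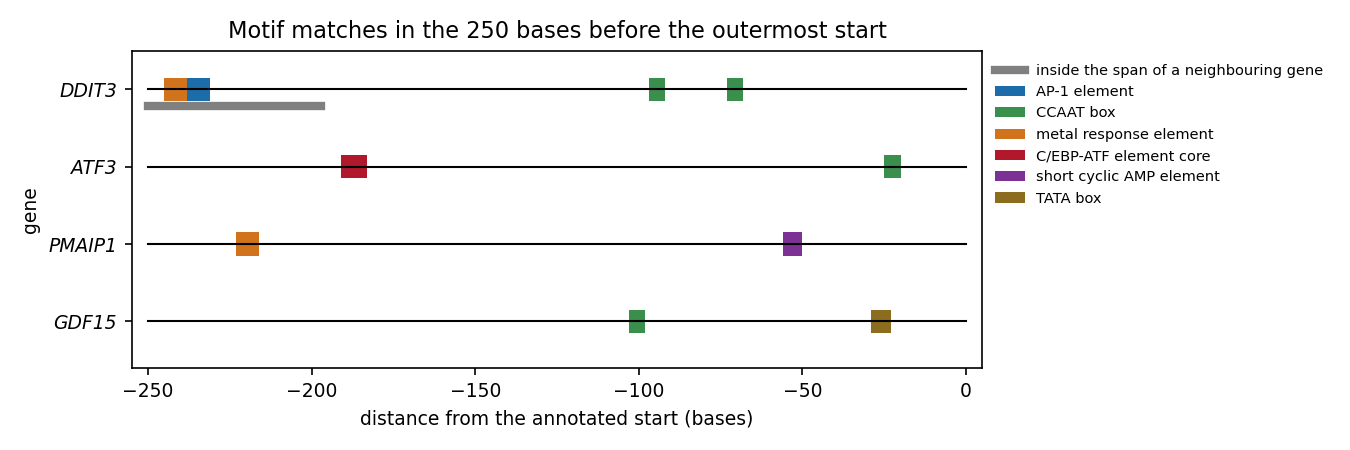
Motif matches in the 250 bases before the outermost annotated start of each gene, with distance from the start in bases on the horizontal axis and 1 line per gene. Coloured boxes are matches on either strand, and the grey bar marks the 53 bases of the DDIT3 window inside the span of MBD6; the TATA box lies in the GDF15 window and the C/EBP-ATF core in that of ATF3.

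The first question was how the 4 genes differed after 5 nm particles. DDIT3, ATF3 and PMAIP1 were higher in each of the 3 replicate numbers, by a mean of 2.83, 1.28 and 1.38 on the log2 scale (7.11-fold, 2.43-fold and 2.6-fold). GDF15 differed by 0.10 (1.07-fold). At an adjusted p under 0.05 in limma with Benjamini-Hochberg adjustment over all tested genes, 0 of the 4 passed without a term for the replicate number, where 0.074% of tested genes did. None passed either with the number as a fixed block, where 0.296% of tested genes passed as higher. At an unadjusted p under 0.05 in limma, DDIT3, ATF3 and PMAIP1 passed in both fits, with 201 tested genes in all without the block and 1739 with it. With the number as a random block, in which 1 correlation of 0.973 was applied to every gene, DDIT3, ATF3 and PMAIP1 passed as higher, as did 3.32% of tested genes, and GDF15 did not.

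DDIT3, the transcription factor CHOP, had log2 intensities of 7.25, 5.70 and 6.51 in the control arrays of replicates 1, 2 and 3, and of 9.89, 9.79 and 8.27 in the 5 nm arrays. Every 5 nm array lay above every control and every 100 nm array, which held for 1.24% of tested genes. The lowest 5 nm value was that of replicate 3. Within a replicate number the difference was 2.63, 4.09 and 1.76, or 6.2-fold, 17.1-fold and 3.39-fold. It thus varied by 2.32 times on the log2 scale between numbers. These differences were exceeded or equalled, counting DDIT3 itself, by 8, 4 and 14 of the 12155 tested genes. The mean of 2.83 had a 95% interval of 1.59 to 4.06 in limma (adjusted p = 0.266) and of 1.40 to 4.26 with the replicate block (adjusted p = 0.133). With the random block the adjusted p in limma was 0.00728, and over 29 alternatives it ranged from 0.00728 to 1, with a positive difference in all 29.

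ATF3, a bZIP factor that ATF4 and CHOP induce and that also answers to growth and damage signals, stood at 7.06, 7.12 and 8.15 in controls and at 8.50, 8.94 and 8.75 after 5 nm particles. The groups did not overlap, and the 5 nm arrays were above the 100 nm arrays too, as in 1.24% of tested genes. The control of replicate 3 was more than 1 log2 unit above the other controls, and the 5 nm arrays lay between 8.50 and 8.94. The differences within replicates 1, 2 and 3 were 1.43, 1.82 and 0.60 (2.7-fold, 3.52-fold and 1.51-fold). Counting ATF3 itself, 25, 62 and 142 tested genes differed as far upward. The 95% interval of the mean of 1.28 was 0.47 to 2.09 in limma (adjusted p = 0.984) and 0.54 to 2.03 with the block (adjusted p = 0.159). The random block gave an adjusted p of 0.0112 in limma, and the range over 29 alternatives was 0.0112 to 1. With the fixed block and without the 5 nm array of replicate 3, ATF3 passed in limma (1.63, adjusted p = 0.0265).

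PMAIP1, which encodes the death protein NOXA, had control intensities of 8.99, 8.04 and 8.43 and 5 nm intensities of 9.99, 10.38 and 9.22. Here too every 5 nm array was above every control and every 100 nm array, as in 1.24% of tested genes. The nearest values were 9.22 in a 5 nm and 8.99 in a control array. Its differences of 0.996, 2.34 and 0.79 (1.99-fold, 5.07-fold and 1.73-fold) put it at place 64, 26 and 72 among the tested genes. The order of ATF3 and PMAIP1 was not the same in the 3 replicate numbers: ATF3 differed more in replicate 1 and PMAIP1 more in replicates 2 and 3. The mean of 1.38 had a 95% interval of 0.60 to 2.15 in limma (adjusted p = 0.616) and of 0.43 to 2.33 with the block (adjusted p = 0.212). With the random block the adjusted p in limma was 0.0198, and over 29 alternatives it was 0.0198 to 1. With the fixed block and without the 5 nm array of replicate 2, PMAIP1 passed at a smaller difference in limma (0.92, adjusted p = 0.046).

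GDF15, the secreted mitokine, was bright in every group. Its log2 intensities were 12.24, 11.76 and 12.13 in controls, 12.39, 11.94 and 12.10 after 5 nm particles and 12.22, 11.76 and 12.10 after 100 nm particles. The 3 groups overlapped, and the arrays of replicate 2 were the lowest in each. After 5 nm particles the differences were 0.15, 0.19 and -0.03, with 9.73%, 13.2% and 21.2% of tested genes at least as far in the same direction. In limma with the block the mean of 0.10 had a 95% interval of -0.03 to 0.23, or 0.98-fold to 1.17-fold (adjusted p = 0.385). Without the block the interval was -0.41 to 0.61 (adjusted p = 1). The interval with the block does not reach the mean differences of DDIT3, ATF3 or PMAIP1. Without the 5 nm array of replicate 3, where GDF15 was lower than its control, the block fit called it higher by 0.16 (limma, adjusted p = 0.0291).

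The level of GDF15 bears on how much room its probe set had. On the 9 arrays 0.477% to 0.987% of tested genes were as bright or brighter, GDF15 included, and the brightest probe set of an array reached 14.08 to 14.32. Among the 81 other genes with a control mean at or above that of GDF15, mean differences after 5 nm particles ran from -0.73 in F8A1 to 0.36 in ANKRD1, both named after their values were seen. Of these genes, 8 differed upward by at least as much as GDF15. Whether signal at this brightness still follows the amount of RNA was not tested.

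**Figure D2:**
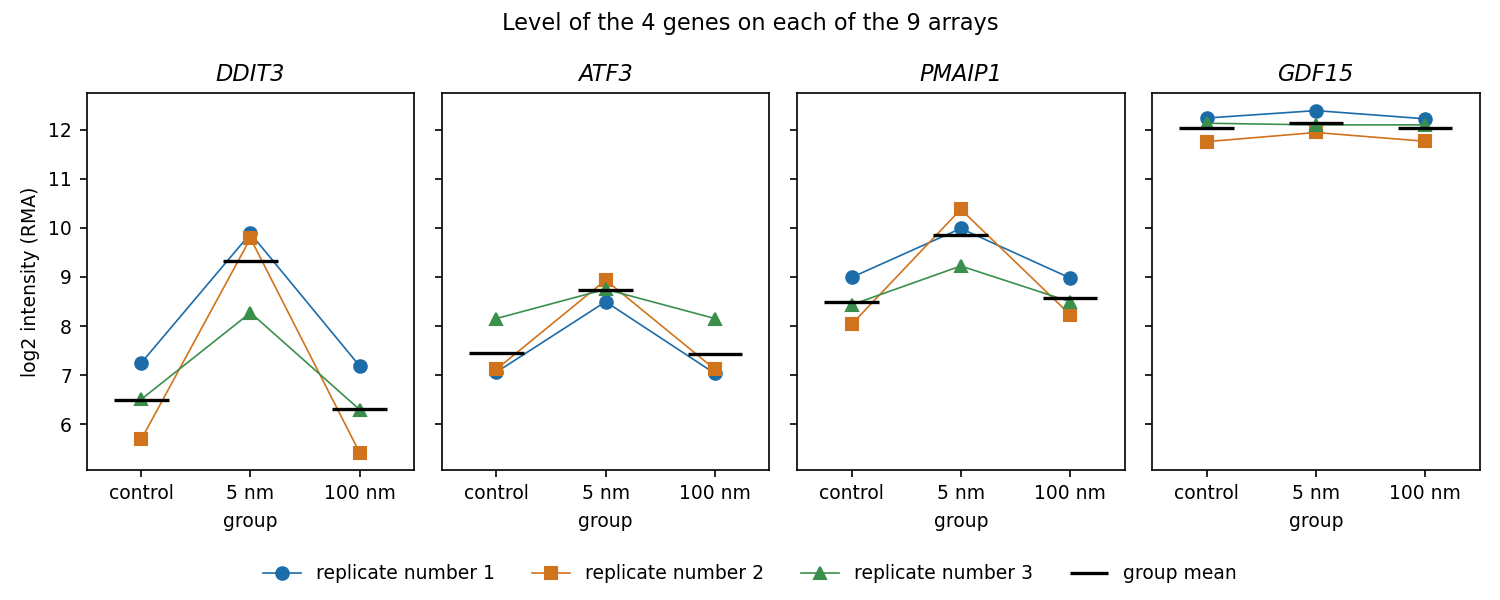
Log2 intensity (vertical axis) of DDIT3, ATF3, PMAIP1 and GDF15 on each of the 9 arrays, by group on the horizontal axis. Coloured lines join arrays of 1 replicate number and black bars are group means; in the first 3 panels all 5 nm arrays lie above all control and 100 nm arrays, and GDF15 stays between 11.76 and 12.39.

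Counts over the 4 genes were read against the same counts over all tested genes. In every replicate number DDIT3, ATF3 and PMAIP1 were higher after 5 nm particles, 3 of 4 members against 8.03% of tested genes. These 3 were also higher by at least 0.5 in all 3 numbers, as were 0.814% of tested genes. DDIT3 alone of the 4 was higher by at least 1 in all 3, which 0.222% of tested genes were. For DDIT3, ATF3 and PMAIP1 each 5 nm array was above every control and every 100 nm array, a pattern found in 1.24% of tested genes. The members were proposed with results of these arrays known, so these shares are a description. The arrays hold RNA of whole cultures, in which fewer cells of a kind and less RNA per cell cannot be told apart.

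**Figure D3:**
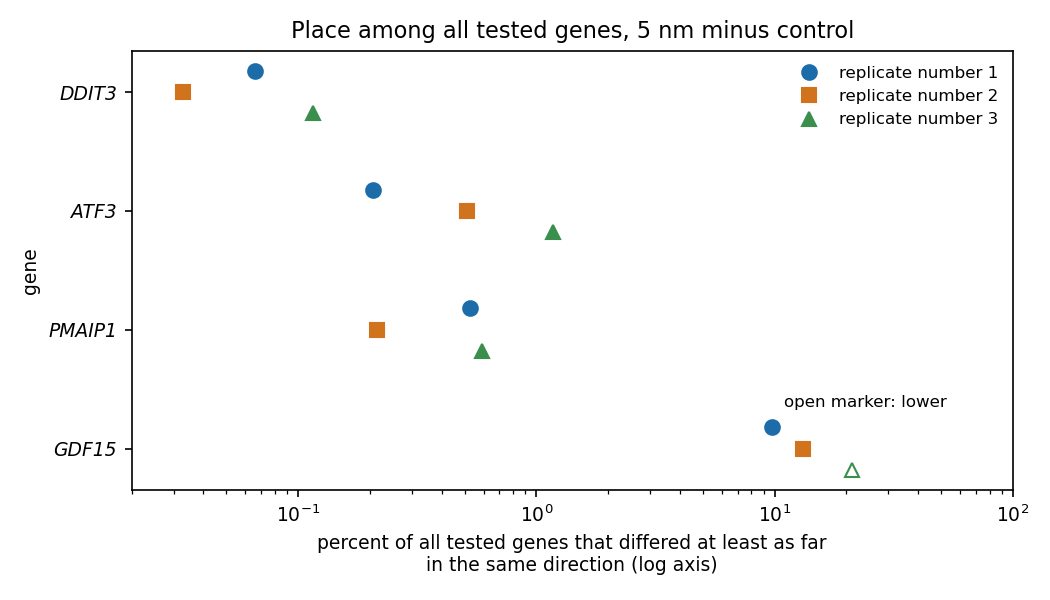
Percent of the 12155 tested genes that differed at least as far in the same direction as each gene after 5 nm particles (horizontal log axis), with 1 marker per replicate number and the genes on the vertical axis. DDIT3 lies at 0.0329% to 0.115%, ATF3 and PMAIP1 at 0.206% to 1.17%, and GDF15 at 9.73% to 21.2%, the open marker being a lower value.

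The replicate numbers did not respond alike. All 3 genes with large differences had their largest in replicate 2 and their smallest in replicate 3. In replicate 2 the SD of the difference over all tested genes was 0.376, against 0.213 in replicate 1 and 0.182 in replicate 3, and 201 tested genes were higher by at least 1 log2 unit there against 63 and 43. In replicate 2, 143 tested genes were also lower by at least 1 log2 unit, against 1 and 2 in the others. DDIT3 stood at place 4 among all tested genes in replicate 2, at place 8 in replicate 1 and at place 14 in replicate 3. The part of this spread in the results on the 4 genes was not tested.

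The second question was whether 100 nm particles, also at about their LD50, moved the same genes. DDIT3 had 7.19, 5.42 and 6.30 on the 100 nm arrays, ATF3 had 7.04, 7.12 and 8.15, and PMAIP1 had 8.98, 8.24 and 8.50. These values lay close to those of the controls, and each group overlapped with its controls. None of the 4 passed in limma without the block or with it, and no other tested gene did: 0.0% passed in each fit. At an unadjusted p under 0.05 in limma, 0 tested genes passed without the block, 33 with it and 91 with the random block, which also called 0 genes after adjustment.

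DDIT3 was lower in all 3 replicate numbers after 100 nm particles, by -0.06, -0.27 and -0.21, as were 1.41% of tested genes. In replicates 1, 2 and 3, 8.98%, 0.979% and 2.25% of tested genes differed as far downward, DDIT3 included. ATF3 differed by -0.03 in replicate 1 and was exactly equal to its control in replicates 2 and 3, as were 59.5% and 65.9% of tested genes. PMAIP1 differed by -0.01, 0.20 and 0.07, and GDF15 by -0.02, 0.01 and -0.03. The means were -0.18 for DDIT3, -0.01 for ATF3, 0.08 for PMAIP1 and -0.01 for GDF15, each with an adjusted p of 1 in limma without the block and with it.

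The intervals of the 100 nm differences depend on which arrays set the spread. In limma with the block on all 9 arrays, the interval of DDIT3 was -1.61 to 1.25, the 5 nm arrays being among those that set the spread. With the block on only the control and 100 nm arrays, which leaves 2 residual degrees of freedom, it was -0.40 to 0.03 for DDIT3 (limma, adjusted p = 0.762). In that fit it was -0.04 to 0.02 for ATF3, -0.13 to 0.30 for PMAIP1 and -0.05 to 0.03 for GDF15. These upper limits are below the smallest differences that 5 nm particles gave in DDIT3, ATF3 and PMAIP1 within any replicate number. Control and 100 nm arrays of a number were exactly equal in 58.7% to 65.9% of tested genes, ATF3 in replicates 2 and 3 among them. Such ties narrow the spread in this fit, so its limits may not cover the spread between cultures, which was not tested.

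**Figure D4:**
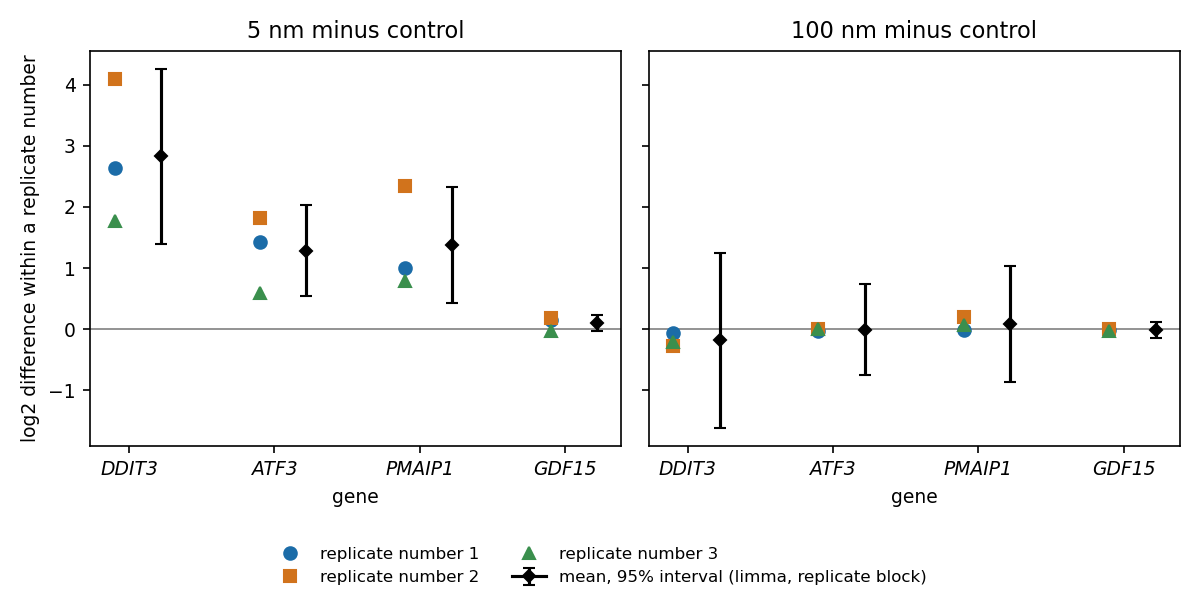
Log2 difference from the control of the same replicate number (vertical axis) for each gene after 5 nm (left) and 100 nm particles (right). Coloured markers are replicate numbers, and black diamonds with bars are means with 95% intervals from limma with the replicate block; on the left DDIT3 runs from 1.76 to 4.09, and on the right all 12 values lie between -0.27 and 0.20.

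The third question set the 2 particle sizes against each other. DDIT3 was higher with 5 nm than with 100 nm particles by 2.70, 4.37 and 1.97 in replicates 1, 2 and 3, a mean of 3.01 (8.07-fold). ATF3 was higher by 1.46, 1.82 and 0.60 and PMAIP1 by 1.01, 2.14 and 0.73, a mean of 1.29 each (2.45-fold). GDF15 differed by 0.17 and 0.18 and was exactly equal in replicate 3. For DDIT3, ATF3 and PMAIP1 no 5 nm array overlapped with a 100 nm array. Their 5 nm arrays were above all control arrays as well, and both held together for 1.24% of tested genes. The share for the 100 nm arrays alone was not counted. None of the 4 passed in limma without the block, where 0.0658% of tested genes did (adjusted p = 0.183 for DDIT3, 0.958 for ATF3, 0.782 for PMAIP1 and 1 for GDF15). At an unadjusted p under 0.05 DDIT3, ATF3 and PMAIP1 passed, with 207 tested genes in all. With the fixed block none passed after adjustment either, against 0.288% of tested genes called higher (adjusted p in limma of 0.121, 0.155, 0.232 and 0.348 in the same order).

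With the random block DDIT3 (adjusted p = 0.00623 in limma), ATF3 (0.0107) and PMAIP1 (0.0253) passed as higher, as did 3.51% of tested genes, and GDF15 did not (0.167). The 95% interval of the difference between particles with the fixed block was 1.58 to 4.44 for DDIT3, 0.55 to 2.03 for ATF3, 0.34 to 2.24 for PMAIP1 and -0.02 to 0.25 for GDF15. Without the 5 nm array of replicate 3, DDIT3 passed in limma with no block (3.53, adjusted p = 0.0452). This comparison and the one with controls share the 5 nm arrays.

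Upstream of the 4 genes, 6 of 12 listed kinases and factors of the eIF2 step were tested, and 0 passed with or without the block (0 and 2 at an unadjusted p under 0.05 in limma without and with it, against 1.65% and 14.3% of all tested genes). After 5 nm particles 1 had a positive mean, 4 had a negative one and 1 was at exactly 0. Over all tested genes 35.9% had a positive and 45.1% a negative mean, and 2311 of 12155 were at exactly 0. EIF2AK3, which encodes PERK, the kinase of the endoplasmic reticulum, was the positive one, with differences of 0.42, 0.80 and 0.21 in replicates 1, 2 and 3. The mean differences of the other kinases were -0.16 for EIF2AK1 (HRI, which senses heme and mitochondrial damage), -0.12 for EIF2AK2 (PKR, which senses double-stranded RNA) and -0.26 for EIF2AK4 (GCN2, which senses uncharged tRNA). DELE1, which relays mitochondrial damage to HRI, was exactly equal to its control in all 3 numbers. In any 1 number 40.6% to 55.5% of tested genes were exactly equal. These kinases act through phosphorylation, which an array does not measure.

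Among bZIP partners 11 of 18 were tested, 7 with a positive and 3 with a negative mean, with 3 positive in all 3 numbers and 0 passing (1 and 3 at an unadjusted p under 0.05 without and with the block in limma). Over all tested genes 35.9% had a positive and 45.1% a negative mean, 8.03% were positive in all 3 numbers, and 1.65% and 14.3% had an unadjusted p under 0.05. ATF4, whose protein is controlled mainly at translation, was higher by 0.28, 0.46 and 0.215 in replicates 1, 2 and 3 (mean 0.32, adjusted p = 1 without and 0.127 with the block in limma). JUNB, an AP-1 subunit, differed by 1.33, 1.82 and 0.33, with the same order over replicate numbers as ATF3. JUN differed by -0.02, 0.48 and 0.05, FOS by 0.72, -0.27 and -0.08 and FOSL1 by 0.02, 0.08 and 0. Of the other AP-1 genes in the list, named after the values were seen, FOSB was positive in all 3 numbers (1.23, 0.82 and 0.20), JUND had a mean of 0.30 and FOSL2 was negative in all 3, with a mean of -0.07.

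The targets of ATF4 and CHOP had the same sign as DDIT3 for the most part. Of 34 listed, 21 were tested, 19 had a positive mean after 5 nm particles and 14 were positive in all 3 numbers, against 35.9% and 8.03% of all tested genes. Their median difference was 0.35, against 0 over all tested genes, and 0 passed with or without the block, while 7 and 8 did at an unadjusted p under 0.05 in limma without and with it, against 1.65% and 14.3% of all tested genes. After 100 nm particles 10 had a positive and 10 a negative mean, with a median of 0. TRIB3, a pseudokinase that CHOP induces and that dampens the response, differed by 1.07, 2.46 and 0.63 (mean 1.39, with adjusted p = 0.542 from limma). SESN2 restrains growth signalling under stress and differed by 2.17, 3.39 and 1.35 (adjusted p = 0.0603 without and 0.146 with the block in limma). DDIT4, which restrains growth signalling too, differed by 1.47, 2.91 and 0.41. ASNS, asparagine synthetase, differed by 0.42, 1.26 and 0.23. ERO1A, an oxidase of the endoplasmic reticulum described as a CHOP target, differed by 0.00, -0.01 and 0.03. The 2 targets with a negative mean, named after their values were seen, were PSPH (-0.11), an enzyme of serine synthesis, and STC2 (-0.04), a secreted glycoprotein.

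**Figure D5:**
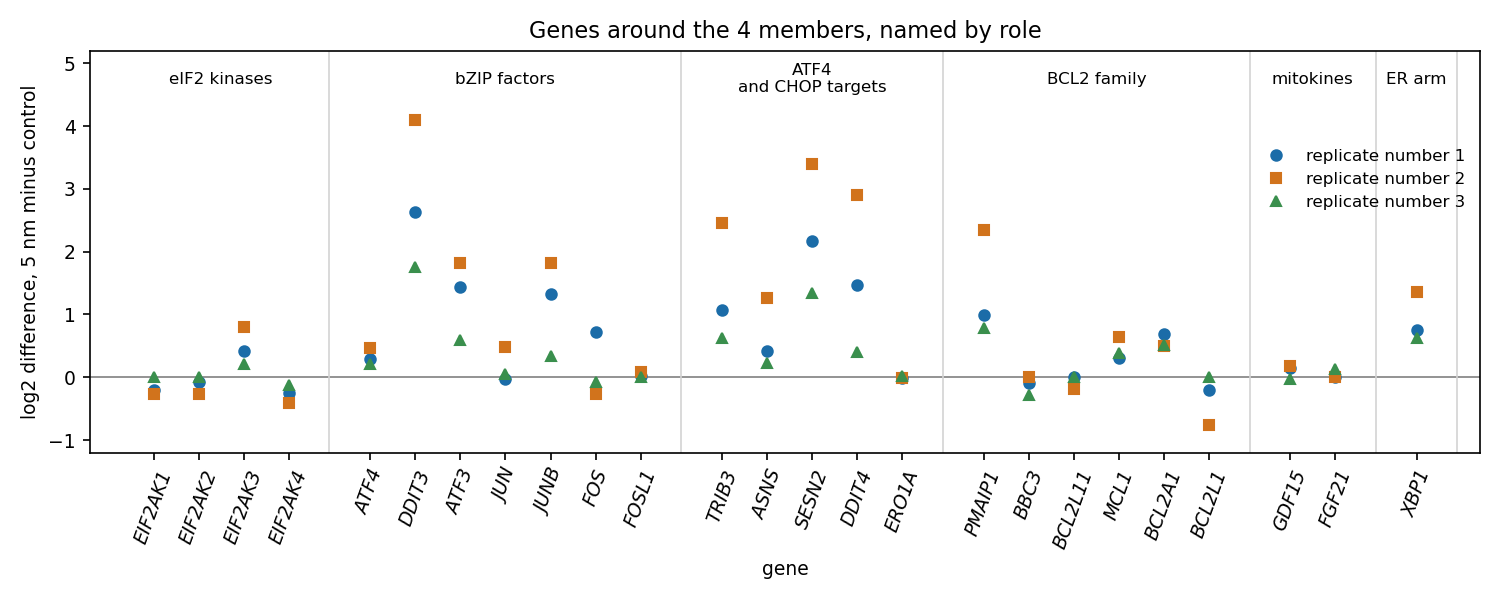
Log2 difference of 5 nm exposed from control arrays (vertical axis) for 25 genes around the CHOP branch on the horizontal axis, ordered by role, with 1 marker per replicate number. DDIT3 and SESN2 have the highest means, TRIB3, DDIT4, JUNB, ATF3 and PMAIP1 are positive in all 3 numbers, and GDF15, FGF21, ERO1A and FOSL1 lie near 0.

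PMAIP1 had a larger mean difference than any of the other BCL2 family genes tested. Of 18 listed BCL2 family and death receptor genes, 13 were tested, with 4 positive means, 7 negative means and 2 at exactly 0, and 0 passed (0 and 4 at an unadjusted p under 0.05 in limma without and with the block). These shares, 30.8% positive and 53.8% negative, lay near the 35.9% and 45.1% of all tested genes, of which 1.65% and 14.3% had an unadjusted p under 0.05. Of the 13 tested genes 2 were positive in all 3 numbers, against 8.03% of all tested genes. They were MCL1 and BCL2A1, whose proteins NOXA binds. Their RNA differed by 0.31, 0.64 and 0.38 for MCL1 and by 0.69, 0.50 and 0.52 for BCL2A1 (adjusted p = 0.133 and 0.0973 with the block in limma, 1 each without). No protein was measured. BCL2L1, another survival gene, differed by -0.20, -0.76 and 0. The other BH3-only genes did not share the difference of PMAIP1, with -0.09, 0 and -0.28 for BBC3 (PUMA) and 0, -0.18 and 0 for BCL2L11 (BIM).

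The genes of the p53 list, from which PMAIP1, ATF3 and GDF15 had been left out, were negative for the most part. SESN2 and DDIT4, with means of 2.3 and 1.6, were counted only among the ATF4 and CHOP targets and are not in it either. The signs in the list thus depend on which genes were placed there, and a part of p53 was not tested. Of 23 listed genes 10 were tested, 9 with a negative mean and 7 negative in all 3 numbers, against 45.1% and 13.4% of all tested genes. Their median was -0.40, and 0 passed with or without the block (1 and 5 at an unadjusted p under 0.05 in limma without and with it, against 1.65% and 14.3% of all tested genes). BBC3 and BAX are in this list and in that of the BCL2 family. BBC3 had a mean of -0.12, and PLK3, the 1 positive gene, had a mean of 0.04 and was named after its values were seen. CDKN1A and MDM2, both classic p53 targets, lacked a named probe set and are not analysed here.

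For GDF15 the comparison genes were other mitokine and mitochondrial stress genes. FGF21, the other mitokine, stood near the floor, at 5.45 ± 0.31 (SD, n = 3) in controls and 5.49 ± 0.25 (SD, n = 3) after 5 nm particles. GFRAL, which encodes the GDF15 receptor, was below the floor, with a control mean of 3.44. Of 6 tested genes in the list 5 had a positive mean, 2 of them in all 3 numbers, and 1 passed as higher with the block. Over all tested genes 35.9% had a positive mean, 8.03% were positive in all 3 numbers and 0.296% passed as higher with the block. HSPA9, the mitochondrial HSP70, differed by 0.43, 0.60 and 0.41 from a control mean of 11.60 (adjusted p = 0.0468 with the block and 1 without in limma). Its call with the block was lost without any 1 control array, without any 1 100 nm array and without the 5 nm array of replicate 1 (adjusted p = 0.0736 to 0.26 in limma).

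The list of chaperones and other stress response genes of the endoplasmic reticulum had 10 of 19 genes tested. Of these, 9 were positive in all 3 numbers, with a median of 0.57. ATF6, named after its values were seen, had the 1 negative mean (-0.035). In the list 0 passed (3 and 6 at an unadjusted p under 0.05 in limma without and with the block). All tested genes had a median of 0, 8.03% of them were positive in all 3 numbers, and 1.65% and 14.3% had an unadjusted p under 0.05. XBP1, the transcription factor of the IRE1 arm, differed by 0.75, 1.36 and 0.62. PPP1R15A, CHAC1, TNFRSF10B, SLC7A11, CEBPB, CEBPG, HSPA5 and HERPUD1 lacked a named probe set too and are not analysed here. Of 9 tested endothelial markers 6 had a negative mean after 5 nm particles and 3 were negative in all 3 numbers, against 45.1% and 13.4% of all tested genes, with mean levels over the list of 8.62 to 9.03 in controls and 8.41 to 8.91 after 5 nm particles; their part in the result was not tested.

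The pattern of each gene over the 9 arrays was also compared with those of other tested genes, after the mean of the 3 arrays of a replicate number had been subtracted. Pearson's r was taken over these 9 values, which share their arrays and their normalization, and over the other genes that varied (SD of at least 0.2), 1175 for DDIT3, ATF3 and PMAIP1 and 1176 for GDF15. Many genes were alike: 385 had r over 0.9 with DDIT3, 354 with ATF3 and 415 with PMAIP1. The highest r with DDIT3 were those of C3orf52 (1.00), RND3, SESN2, ERBIN and PLAA (0.998 each). For ATF3 they were PTGS2 (0.999), SAT1 (0.998), KDM7A, SEL1L and VGLL3 (0.997 each), and for PMAIP1 they were SNX9 (0.999), FBXO11 and ZNF384 (0.998 each), CHMP1B and SOCS1 (0.997 each). PTGS2, which encodes the inducible cyclooxygenase, differed by 3.03, 3.60 and 1.19 after 5 nm particles in replicates 1, 2 and 3, each a larger difference than that of ATF3 and in the same order over the numbers.

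DDIT3 had r = 0.987 with ATF3 and 0.982 with PMAIP1, over the same 9 values. GDF15, whose SD over them was 0.0707, had r = 0.894 with DDIT3, 0.941 with ATF3 and 0.881 with PMAIP1. In replicate 3, GDF15 was not higher after 5 nm particles than in either other group, while DDIT3, ATF3 and PMAIP1 were. The genes most like GDF15 were MRPL18 (0.989), MRTFA (0.986), HYOU1 (0.982), CPEB2 and CRELD2 (0.98 each). Each of these was higher in replicates 1 and 2 and within 0.08 of its control in replicate 3; CRELD2, an endoplasmic reticulum stress protein, differed by 0.91, 0.905 and 0.08.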

How the data were processed

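For 53617 probe sets on each of 9 arrays the authors deposited a log2 intensity; the submitters' processing notes name RMA and Affymetrix Expression Console 1.3.1. RNA was measured from biotin-labelled cDNA of 300 ng RNA per the labels' protocols. No genome build is named there. Arrays of the same replicate number held exactly equal values in 46.9% to 57.6% of probe sets and arrays of different numbers in at most 0.00373%, so the values appear to have been normalized in sets of 3 arrays, which no source used here states. Array medians were 5.15 to 5.64, and the number of arrays limits the precision.

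One gene symbol was given for 16098 probe sets, several for 0 and none for 37519; all 16098 matched RefSeq through the Entrez identifier. The probe set with the highest mean stood for a gene, and a gene was tested if it reached 5 on at least 3 arrays. Group means were compared by limma 3.58.1 under R 4.3.3 (lmFit, then eBayes, over all 9 arrays, Benjamini-Hochberg over 12155 genes). The code was run on simulated arrays with known changes, to check that the mean estimates returned those changes. The simulated noise lacked the exact ties of these arrays, so that run does not bear on how far the calls can be relied on. Deviations from the group means correlated at 0.762 to 0.967 between arrays of the same number (9 pairs) and at -0.582 to -0.265 otherwise. Deviations within a group of 3 arrays cancel, which by itself makes the second range negative. Normalization in sets of 1 number would by itself raise the first range. These correlations therefore cannot tell paired cultures from shared processing. Fits with the replicate block are given beside the others. The alternatives covered the block, the filter, scaling, probe set choice, variance prior and each array left out.

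The members and gene lists were chosen with earlier results of these data known. Genes named were the 4 members, a set fixed by role, list members past the threshold in either fit, and the 5 genes most like each member. Markers of leukocytes (2 of 3 measured genes, CD68 and LYZ, above the floor on all arrays) and fibroblasts (LUM and DCN, below it on all) were checked too, and of 7 lung epithelial markers 6 were above it on all arrays.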

Additional observations from a re-analysis of the deposited data

How the results depend on the processing

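DDIT3, ATF3 and PMAIP1 were higher after 5 nm particles, against controls and against 100 nm particles, in all 29 alternatives run for each. Their calls were not stable: the random replicate block called all 3 in both comparisons (differences of 2.83, 1.28 and 1.38 against controls and 3.01, 1.29 and 1.29 against 100 nm particles). With the replicate block and without the 5 nm array of replicate 3, ATF3 (1.63 against controls, 1.64 against 100 nm particles) and GDF15 (0.16 and 0.18) were called. With the block and without the 5 nm array of replicate 2, PMAIP1 was called against controls (0.92) and DDIT3 against 100 nm particles (2.36).

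Leaving out 1 array with no block gave differences from controls of 2.43 to 3.35 for DDIT3, 1.09 to 1.64 for ATF3, 1.12 to 1.70 for PMAIP1 and -0.041 to 0.20 for GDF15. Against 100 nm particles it gave 2.57 to 3.53, 1.09 to 1.65, 1.03 to 1.61 and -0.017 to 0.215 in the same order, and DDIT3 was called at 3.53, without the 5 nm array of replicate 3. GDF15 was also below 0 without the 5 nm array of replicate 1 (-0.021 and -0.007).

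For 100 nm particles against controls no sign held. Leaving out 1 array with no block gave -0.63 to 0.26 for DDIT3, -0.37 to 0.35 for ATF3, -0.141 to 0.34 for PMAIP1 and -0.16 to 0.12 for GDF15. With the block and 1 array left out the sign turned at 0.091 and 0.178 for DDIT3, at 0.16, 0.038 and 0.12 for ATF3, at -0.185 and -0.052 for PMAIP1 and at 0.025 for GDF15.

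The count of genes called for 5 nm particles against controls was 9, and 79 with the replicate block, 0 with the block on only the 2 groups, 884 with the random block, 15 with a floor of 6, 16 after quantile normalization over all arrays and 4 with equal medians. Against 100 nm particles it was 8, then 75, 0, 927, 15, 17 and 4, and 13 with the trended robust prior. With no block and 1 array left out the counts were 6 to 15 and 6 to 19. With the block, against controls, they fell from 79 to 2 without control replicate 3 and to 10 to 13 without another control or any 100 nm array, and were 131, 326 and 446 without the 5 nm array of replicate 1, 2 or 3. Against 100 nm particles they fell from 75 to 14 without the 100 nm array of replicate 2 and to 7 to 12 without another 100 nm or any control array, and were 131, 330 and 449 without the 5 nm arrays in that order. For 100 nm particles against controls 1 gene was called with the block once control replicate 2 or 100 nm replicate 2 was left out. The cause of these changes was not tested. With 3 arrays a group, the number of arrays limits the precision.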
